A study of Mus musculus with 18 samples.

Results

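The genes described here are 10 genes of the core circadian clock, namely Arntl, Arntl2, Clock, Npas2, Per1, Per2, Per3, Dbp, Nr1d1 and Nr1d2. The platform annotation listed 9 of these 10 genes, on 21 probe sets, among the 17097 genes measured. Nr1d1 was not analysed here, and 1 Per2 probe set that the annotation assigns to another gene as well was left out. The study hybridised total RNA from livers of female mice, 6 to 8 weeks old, to 18 Affymetrix GeneAtlas MG-430 PM arrays. It used 2 models meant to stimulate transintestinal cholesterol excretion, which disposes of cholesterol without bile. The long-term model compared NPC1L1-liver-transgenic mice (n = 5), which carry the cholesterol transporter NPC1L1 in the liver, with wild type mice (n = 5), all C57BL/6. The short-term model compared mice treated with an ASO (antisense oligonucleotide) directed at ACAT2, a cholesterol-esterifying enzyme (n = 4), with mice given a non-targeting control ASO (n = 4), all C57BL/6N. All control ASO mice had therefore also received an oligonucleotide. The labels give neither the promoter of the transgene nor the time of day at which livers were taken, and they number samples without saying that each was a separate mouse, so p-values measure the spread between samples, which may be partly technical.

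The clock is a loop of transcription and repression. CLOCK, or its relative NPAS2, pairs with BMAL1 (the Arntl product) or BMAL2 (the Arntl2 product) and binds E-boxes in the genes of its own repressors, the period proteins PER1, PER2 and PER3 among them. In a second loop the nuclear receptors REV-ERB alpha and beta (Nr1d1 and Nr1d2) repress Arntl through ROR elements, and DBP is an output factor that binds D-boxes. In mouse liver Arntl and Npas2 transcripts reach their peak at about the time when those of Dbp, Nr1d1 and Per3 are at their trough, so the levels of these genes in a sample depend on when it was taken.

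Values are RMA log2 intensities as deposited, and the probe set of highest overall mean stands for each gene. Array medians of the log2 values ran from 4.61 to 4.65 for the transgenic model but from 4.38 to 4.40 for the ASO model, so levels are compared only within a model. The 6 hepatocyte markers averaged 12.67 to 12.91 in transgenic, 12.88 to 13.01 in wild type, 12.84 to 12.86 in ACAT2 ASO and 12.87 to 12.91 in control ASO livers. One array of each of 3 groups stood apart from the others of its group. The root mean square deviation from the group mean over all genes was 0.248 for wild type 2, 0.192 for ACAT2 ASO 1 and 0.232 for control ASO 4, against 0.115 to 0.167 for the other arrays. The mean of the 5 Kupffer cell markers, all of them measured, ranged from 8.66 to 9.49 in transgenic, 8.45 to 10.22 in wild type, 7.98 to 9.88 in ACAT2 ASO and 8.03 to 9.49 in control ASO livers, and its highest value within each of the last 3 groups belonged to those arrays. Results are given with and without them where that matters, and in bulk tissue fewer cells of a type and less RNA per cell cannot be told apart.

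Promoters of 8 of the 9 measured genes were found in the RefSeq table of build GRCm38.p6, each a window from 250 bases before to 50 bases after a transcription start. Both strands were searched for the E-box CACGTG, its variant CACGTT, the D-box TTATGTAA, the ROR element TAGGTCA and the cyclic AMP element TGACGTCA. Across 32851 promoters, the 250 bases before the start held these motifs in 6.02%, 3.85%, 0.82%, 2.23% and 1.55% of cases. Of the measured clock genes, Per3 and Per1 held a motif in these 250 bases, and Arntl held one after its start. They are shown because the loop's factors bind these motifs, and because Per3 and Dbp, a D-box binding factor, are set against each other further on. The capitals mark the motifs, which in Per3 are 2 D-boxes at 205 and 158 bases before the start, in Per1 an E-box at 166 bases before the start, and in Arntl a ROR element at 30 bases after the start. The Per3 stretch is chr4:151044666-151044915 on the minus strand, and the Per1 stretch chr11:69098699-69098948 on the plus strand. The Arntl stretch, 30 bases long and after one of its starts, is chr7:113207530-113207559 on the plus strand.
Per3: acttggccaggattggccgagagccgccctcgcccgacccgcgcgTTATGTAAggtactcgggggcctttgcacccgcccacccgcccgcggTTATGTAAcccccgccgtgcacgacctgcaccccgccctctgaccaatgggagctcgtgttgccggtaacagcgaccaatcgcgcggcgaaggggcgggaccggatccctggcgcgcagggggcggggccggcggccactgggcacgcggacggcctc
Per1: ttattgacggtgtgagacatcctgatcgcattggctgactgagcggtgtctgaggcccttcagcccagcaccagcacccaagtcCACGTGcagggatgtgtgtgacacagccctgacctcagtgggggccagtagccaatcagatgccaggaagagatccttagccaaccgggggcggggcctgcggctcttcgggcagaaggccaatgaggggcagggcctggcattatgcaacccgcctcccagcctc
Arntl: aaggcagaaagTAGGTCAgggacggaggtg
A match describes these letters alone and is not evidence of binding. In the promoters found for the other measured genes, Npas2, Clock, Arntl2, Dbp and Nr1d2, none of the 5 motifs was present in these windows. The windows of a further Per1 start and of the other Arntl start held none either.

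In NPC1L1-liver-transgenic livers, as against wild type, Arntl2 read lower by the probe set used, and the other 8 clock genes did not pass the test. Their log2 changes lay between -0.15 for Dbp and 0.12 for Per1. In the limma fit 1 of the 9 genes had an adjusted p (Benjamini-Hochberg) under 0.05, where 0.228% of all 17097 genes (39) were called in either direction and 0.0585% were called lower. At an unadjusted p under 0.05 the count was also 1 of 9, against 10.9% of all genes. The median log2 change of the 9 genes was -0.10, and that of all genes was 0.0058.

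Arntl2 encodes BMAL2, a paralogue of BMAL1. Its log2 value was 4.26, 4.20, 4.16, 4.04 and 4.04 in the 5 transgenic livers, against 4.46, 4.38, 4.41, 4.48 and 4.37 in the 5 wild type livers. Every transgenic value lay below every wild type value, a separation found for 1 of the 9 clock genes and for 2.22% of all genes. All these values lay below the array medians of this model, 4.61 to 4.65. Whether this probe set detected its transcript above background was not measured. The log2 change was -0.28 ± 0.06 (SE, limma adjusted p = 0.0418). The other Arntl2 probe set gave a change in the opposite direction, 0.08 on the log2 scale, with limma adjusted p = 0.598. It read 3.47, 3.59, 3.53, 3.38 and 3.32 in transgenic livers, against 3.36, 3.41, 3.38, 3.38 and 3.35 in wild type livers, and the groups overlapped. With the mean of the 2 probe sets the change was -0.10 and the limma adjusted p 0.447. The call was kept in 2 of the 10 fits that left out 1 array of this model, those without transgenic 1 or wild type 5, and limma's adjusted p ran from 0.0343 to 0.127. It was also lost after quantile normalization (0.0562), after median centring (0.0701), with a trended and robust variance (0.0518) and with the arrays of this model alone (0.125).

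The remaining activators of the loop lay close together in the 2 groups. Arntl read 4.74, 4.77, 4.60, 4.72 and 4.68 in transgenic livers, against 4.93, 4.72, 4.74, 4.79 and 4.83 in wild type livers. Its groups overlapped, the log2 change was -0.10 ± 0.05 (SE), and limma's adjusted p was 0.478 (unadjusted p = 0.0563). The second Arntl probe set gave 0.01, and over the 18 arrays its correlation with the first was -0.07. Clock read 5.76, 5.65, 5.70, 5.72 and 5.61 in transgenic livers, against 5.86, 5.73, 5.44, 5.53 and 5.79 in wild type livers. Its change was 0.02 ± 0.08 (SE, limma adjusted p = 0.963), with a 95% interval from -0.14 to 0.18, and the 3 other Clock probe sets gave -0.02, -0.01 and 0.01. Npas2, which can stand in for CLOCK, averaged 3.74 ± 0.06 in transgenic and 3.75 ± 0.13 in wild type livers (SD, n = 5 each), and its change was -0.01 (limma adjusted p = 0.966).

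The period genes varied more within each group than between the groups. Per1, a repressor that glucocorticoids and cyclic AMP also induce, read 7.50, 7.92, 7.11, 7.97 and 7.75 in transgenic livers, against 7.63, 6.92, 7.47, 8.01 and 7.58 in wild type livers. Per2, a repressor whose liver transcript also responds to signals from the blood, read 6.58, 7.18, 6.91, 7.15 and 6.53 in transgenic livers, against 7.50, 6.14, 7.28, 7.07 and 6.95 in wild type livers. The lowest wild type value of both genes was that of wild type 2, and the groups overlapped. The change of Per1 was 0.12 ± 0.17 and that of Per2 -0.12 ± 0.22 (SE, limma adjusted p = 0.866 and 0.906), with 95% intervals from -0.24 to 0.49 and from -0.58 to 0.33. Without wild type 2, the Per1 change was -0.03 and the Per2 change -0.33.

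Per3, the period gene whose loss affects the mouse clock least, read 7.06, 7.51, 7.73, 7.71 and 7.52 in transgenic livers, against 7.60, 7.25, 7.85, 7.71 and 7.70 in wild type livers. The lowest values were those of transgenic 1 and wild type 2. The change was -0.12 ± 0.15 (SE, limma adjusted p = 0.85). Of the 4 other Per3 probe sets, 1 had an unadjusted p of 0.0396 with a change of -0.27 (limma adjusted p = 0.451 over all probe sets), and the others gave 0.0070, -0.21 and -0.02.

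The output arm was represented by Dbp and Nr1d2. Dbp read 9.33, 9.24, 9.54, 9.44 and 9.48 in transgenic livers, against 9.49, 9.32, 9.74, 9.66 and 9.58 in wild type livers, and the change was -0.15 ± 0.16 (SE, limma adjusted p = 0.797). Nr1d2, the gene of REV-ERB beta, read 9.53, 9.35, 9.73, 9.55 and 9.72 in transgenic livers, against 9.45, 9.50, 9.60, 9.75 and 9.94 in wild type livers. Its change was -0.07 ± 0.10 (SE, limma adjusted p = 0.869), and its second probe set gave -0.09. The 2 genes of this arm thus overlapped between the groups.

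**Figure D1:**
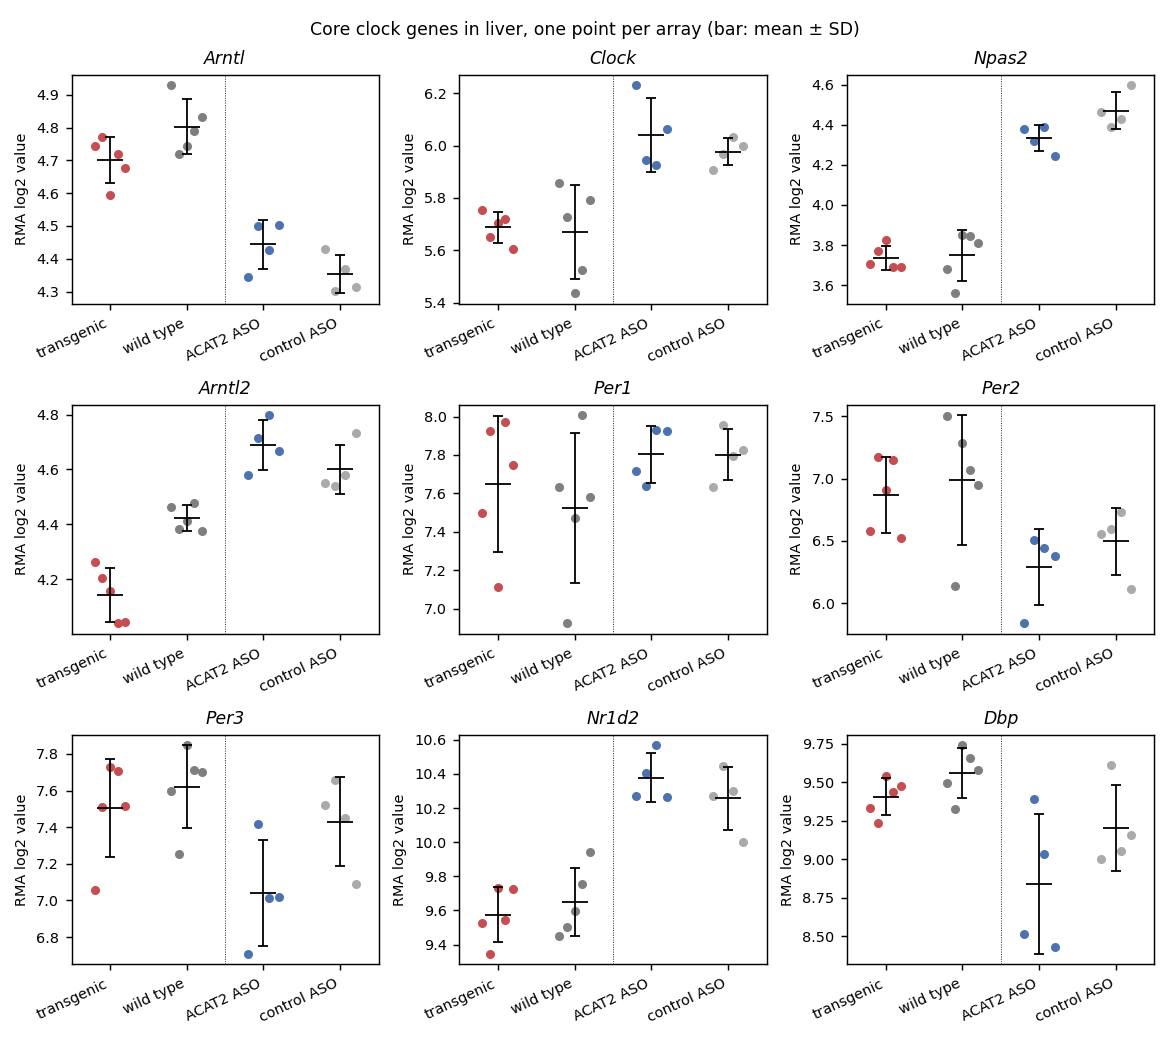
RMA log2 value (vertical axis, scaled to each gene) of the 9 measured clock genes, one point per array, with the group mean and SD as bars. Transgenic and wild type are to the left of the dotted line and ACAT2 ASO and control ASO to the right. In Arntl2 the transgenic points, 4.04 to 4.26, all lie below the wild type points, 4.37 to 4.48, and the wild type points of Per1 and Per2 spread over 1.08 and 1.37.

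In ACAT2 ASO livers, as against control ASO, none of the 9 clock genes passed the test (0 of 9), where 0.597% of all genes (102) were called by limma at an adjusted p under 0.05. At an unadjusted p under 0.05 the count was 1 of 9, namely Per3, against 13.3% of all genes. The median change of the 9 genes was 0.0014, and that of all genes was -6e-04.

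Per3 read 6.71, 7.42, 7.01 and 7.02 in ACAT2 ASO livers, against 7.52, 7.66, 7.45 and 7.09 in control ASO livers. Its groups overlapped through ACAT2 ASO 2 and control ASO 4. The log2 change was -0.39 ± 0.17 (SE) with an unadjusted p of 0.0321, and limma's adjusted p was 0.314. Leaving out single arrays, controls included, moved the change between -0.52 and -0.28. The other 4 Per3 probe sets also had lower means in ACAT2 ASO livers, by -0.21, -0.16, -0.06 and -0.02 on the log2 scale.

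Dbp read 8.51, 9.39, 9.03 and 8.43 in ACAT2 ASO livers, against 8.999, 9.61, 9.05 and 9.15 in control ASO livers. The 2 lowest of the 8 values were ACAT2 ASO 4 and ACAT2 ASO 1, and the highest was control ASO 2. The change was -0.36 ± 0.17 (SE, limma adjusted p = 0.383, unadjusted p = 0.0524), and it moved between -0.55 and -0.23 when single arrays were left out. Nr1d2 read 10.27, 10.41, 10.57 and 10.27 in ACAT2 ASO livers, against 10.27, 10.45, 10.30 and 10.003 in control ASO livers, a change of 0.12 ± 0.12 (SE, limma adjusted p = 0.725). Here the output genes Dbp and Nr1d2 had differences of opposite sign, neither of which passed the test.

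Per1 averaged 7.80 ± 0.15 in ACAT2 ASO and 7.80 ± 0.13 in control ASO livers (SD, n = 4 each), and its change was 0.0014 with a 95% interval from -0.40 to 0.41. Per2 read 5.84, 6.50, 6.44 and 6.38 in ACAT2 ASO livers, against 6.56, 6.59, 6.73 and 6.11 in control ASO livers. Its change was -0.21 ± 0.24 (SE, limma adjusted p = 0.782), and its second probe set gave -0.17. As with Per3, the ACAT2 ASO 1 array had the lowest value of its group and the control ASO 4 array the lowest of its own.

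Npas2 was the only one of the 9 genes whose ASO groups did not overlap, which held for 9.05% of all genes. It read 4.38, 4.32, 4.39 and 4.25 in ACAT2 ASO livers, against 4.46, 4.39, 4.43 and 4.60 in control ASO livers. The nearest values of the groups were 4.387 in ACAT2 ASO 3 and 4.390 in control ASO 2, so the separation was very narrow. The change was -0.14 ± 0.07 (SE, limma adjusted p = 0.383), and the second Npas2 probe set gave -0.0016. Arntl read 4.35, 4.50, 4.43 and 4.50 in ACAT2 ASO livers, against 4.43, 4.30, 4.37 and 4.31 in control ASO livers, a change of 0.09 ± 0.06 (SE, limma adjusted p = 0.528). Its second probe set gave -0.01. Clock averaged 6.04 ± 0.14 in ACAT2 ASO and 5.98 ± 0.05 in control ASO livers (SD, n = 4 each), with changes between 0.06 and 0.17 over its 4 probe sets and none past the test. Arntl2 read 4.58, 4.71, 4.80 and 4.67 in ACAT2 ASO livers, against 4.55, 4.54, 4.58 and 4.73 in control ASO livers, a change of 0.09 ± 0.06 (SE, limma adjusted p = 0.584).

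**Figure D2:**
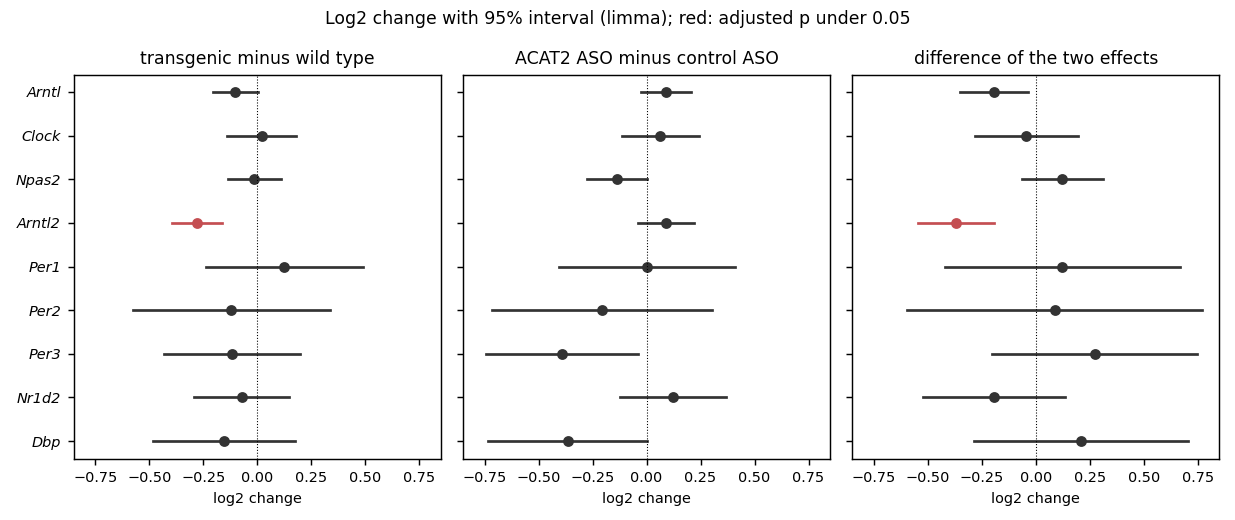
Log2 change (horizontal axis) of the 9 clock genes with its 95% interval from limma, for transgenic against wild type, ACAT2 ASO against control ASO, and the first change minus the second. Red marks an adjusted p under 0.05, which Arntl2 reached at -0.28 in the transgenic model and at -0.37 in the difference, while the intervals of Per1 and Per2 are the widest.

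Whether the 2 models moved a clock gene differently was tested as the transgenic change minus the ASO change. Arntl2 passed, with a difference of -0.37 ± 0.08 (SE, limma adjusted p = 0.0418), as did 1.07% of all genes, and at an unadjusted p under 0.05 there were 2 of 9, against 15.4% of all genes. This call was kept in 5 of 18 fits that left out 1 array, those without transgenic 1, transgenic 2, wild type 5, ACAT2 ASO 1 or control ASO 4, and limma's adjusted p ran from 0.0298 to 0.0907. With the mean of the 2 Arntl2 probe sets the difference was -0.11 (limma adjusted p = 0.456), and the call was also lost after quantile normalization (0.0545) and median centring (0.0621). Arntl had a difference of -0.19 ± 0.07 (SE, unadjusted p = 0.0201, limma adjusted p = 0.223). The other 7 genes had differences between -0.19 and 0.27, with limma adjusted p of 0.549 and above.

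**Figure D3:**
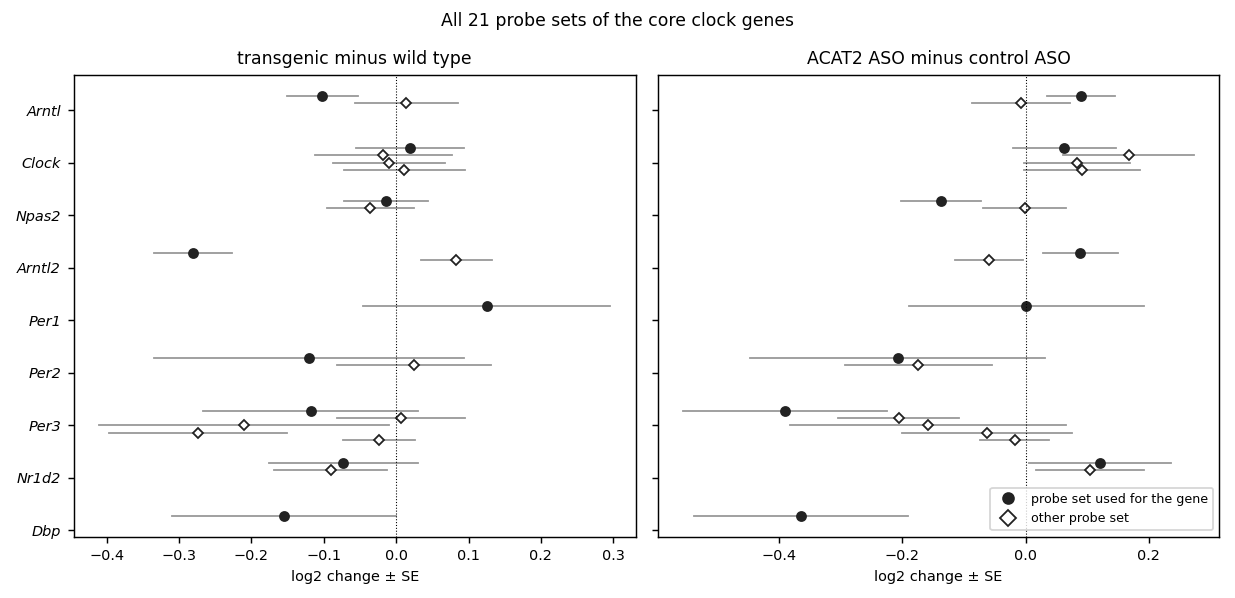
Log2 change ± SE (horizontal axis) of all 21 clock probe sets, with the one used for each gene filled and the others open. The Arntl2 probe sets lie on opposite sides of 0 in both models, at -0.28 and 0.08 in the transgenic model, and the 5 Per3 probe sets all lie below 0 in the ASO model.

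Tested one by one, limma called 1 of the 21 clock probe sets for the transgenic model, 0 for the ASO model and 1 for the difference, against 0.173%, 0.486% and 0.777% of all 45037 probe sets. Probe sets of one gene did not always follow each other, which bears on how far a single probe set stands for its gene. Over the 18 arrays, the correlation with the probe set used was 0.47 for Arntl2, 0.57 for Per2, 0.40 for Nr1d2 and between 0.03 and 0.30 for the 4 other Per3 probe sets. A pair of those Per3 probe sets correlated with each other at 0.82. In wild type 2, where the Per3 probe set used was the lowest of its group at 7.25, this pair read 6.76 and 6.07 and was the highest of its group.

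Other genes of the loop and its outputs were examined as lists. None of the 15 measured of 17 further loop genes was called in either model (0 of 15), at backgrounds of 0.228% and 0.597% of all genes. At an unadjusted p under 0.05, Bhlhe40, which encodes a repressor that competes for E-boxes, differed by -0.31 ± 0.14 (SE, limma adjusted p = 0.416) in the transgenic model. In the ASO model Cry2, the gene of a cryptochrome that represses CLOCK and BMAL1, differed by -0.18 ± 0.07 (SE, limma adjusted p = 0.249). The median change of the list was 0.0164 in transgenic and -0.0023 in ACAT2 ASO livers.

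Among clock-driven liver genes, 0 of 15 measured of 18 listed were called in either model, at backgrounds of 0.228% and 0.597% of all genes. The median change of the list was 0.0961 in transgenic and 0.1064 in ACAT2 ASO livers. At an unadjusted p under 0.05, 3 were higher and 1 lower in transgenic livers, against 6.36% and 4.52% of all genes. Elovl3, a fatty acid elongase, read 6.94, 7.88, 7.48, 6.22 and 6.01 in transgenic livers, against 5.73, 4.87, 5.31, 5.95 and 5.76 in wild type livers. Every transgenic value lay above every wild type value, the nearest being 6.01 and 5.95, and 2.22% of all genes were so separated in either direction. The change was 1.38 ± 0.52 (SE, limma adjusted p = 0.325). Cyp7a1, the rate-limiting enzyme of bile acid synthesis, differed by 0.58 ± 0.20 and Alas1, which starts haem synthesis, by 0.54 ± 0.18 (SE, limma adjusted p = 0.274 and 0.251). Avpr1a, a vasopressin receptor, differed by -0.41 ± 0.19 in transgenic livers and by 0.69 ± 0.21 in ACAT2 ASO livers (SE, limma adjusted p = 0.441 and 0.134), and the difference between the models was -1.10 ± 0.28 (SE, limma adjusted p = 0.069). No other gene of this list had an unadjusted p under 0.05 in the ASO model. Of 13 genes driven by glucocorticoids, feeding or body temperature, 0 were called by limma in either model, against 0.228% and 0.597% of all genes, and their median change was 0.1192 in transgenic and 0.019 in ACAT2 ASO livers. At an unadjusted p under 0.05 there was none (0) among transgenic against wild type changes and 1 among ASO changes, namely Fgf21, a hormone of the fasted liver, at -0.24 ± 0.11 (SE, limma adjusted p = 0.358), where 10.9% and 13.3% of all genes had such a p.

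How alike the samples of a group were in their clock genes bears on whether they were taken at a like time of day, which the labels do not give. The SD around the group mean was 0.427 for Per2, 0.373 for Per1, 0.248 for Per3, 0.181 for Nr1d2 and 0.142 for Dbp in the transgenic model, where the median over all genes was 0.114. Per1 and Per2 thus lay at the 96.8 and 97.8 percentile of all genes, while Dbp lay at 68.1. Without wild type 2 the SD of Per2 was 0.281 (percentile 95.8) and that of Per1 0.307 (percentile 96.7), so the first place of Per2 rests on that array. In the ASO model the order differed, with Dbp at 0.376 (percentile 96.0), Per2 at 0.288, Per3 at 0.267, Nr1d2 at 0.165 and Per1 at 0.141 (percentile 73.7), against a median of 0.098. Arntl varied little, with an SD of 0.076 in the transgenic and 0.067 in the ASO arrays (percentiles 17.7 and 23.0), and Npas2 had 0.099 and 0.079. Dbp spanned 0.30 among transgenic, 0.42 among wild type, 0.96 among ACAT2 ASO and 0.61 among control ASO livers.

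Since Arntl and its outputs peak at opposite times in mouse liver, their deviations were set against each other. Over deviations from the group means, Arntl and Dbp correlated at r = -0.345 in the transgenic model (exact permutation within groups, p = 0.374, adjusted over 8 relations 0.599; rho = -0.491, adjusted p = 0.491, n = 10). In the ASO model r was -0.014 and rho -0.19 (exact permutation p = 0.979 and 0.705, adjusted 0.979 and 0.705, n = 8). Without the 2 arrays farthest from the Arntl median, r was -0.0461 and -0.384. With the mean of all probe sets of a gene, r was -0.695 in the ASO model (exact permutation p = 0.0278, adjusted 0.139). For Arntl and Per3, r was -0.155 in the transgenic and 0.572 in the ASO model, and for Arntl and Npas2 it was -0.108 and -0.423, with adjusted exact permutation p of 0.523 and above. An opposition of Arntl to its outputs was not detectable in these samples with the probe sets used. The Arntl probe set varied little and read 4.30 to 4.93, near the array medians, and the 2 Arntl probe sets correlated at -0.07. These correlations therefore cannot decide whether an opposition was present.

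Dbp and Per3 deviated in the same direction in the transgenic model by rank, in a relation that depended on the arrays and probe sets used. Their deviations correlated at r = 0.743 (exact two-sided permutation p = 0.0201, adjusted 0.161) and rho = 0.879 (exact permutation p = 0.00368, adjusted 0.0294, n = 10). Without the 2 arrays farthest from the Dbp median r was 0.757 and rho 0.762 (exact permutation adjusted p = 0.0694 and 0.111, n = 8), so rho no longer passed. With the mean of each gene's probe sets r was 0.339 and rho 0.479 (exact permutation adjusted p = 0.435 and 0.576). After quantile normalization rho was 0.697 and its exact permutation adjusted p 0.348. In the ASO model r was 0.671 and rho 0.476 (exact permutation p = 0.109 and 0.309, adjusted 0.438 and 0.533, n = 8), and without the 2 arrays farthest from the Dbp median r was 0.0269, so that relation rests on those arrays. The Per3 promoter holds the 2 D-boxes printed above. Whether DBP acts there was not measured.

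**Figure D4:**
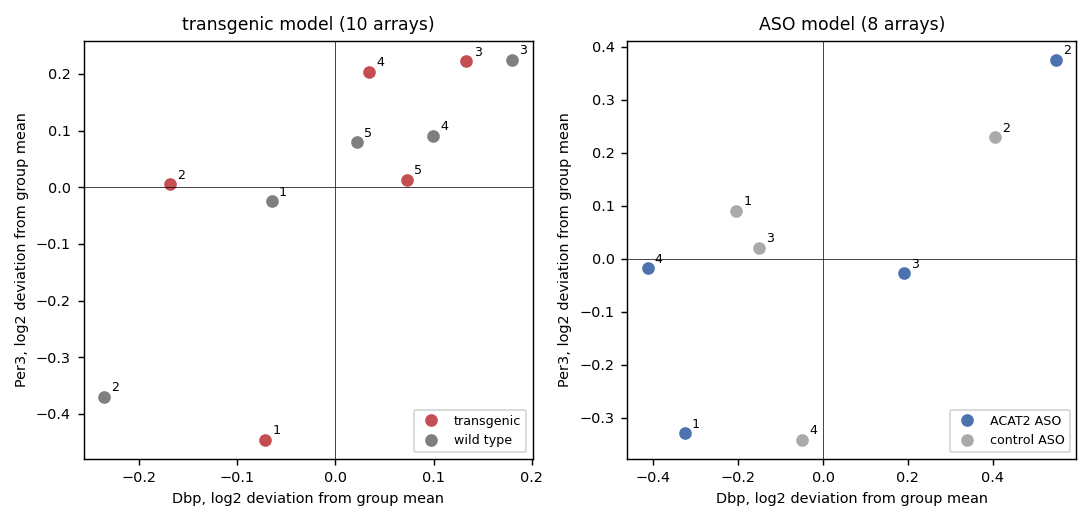
Deviation of Dbp (horizontal) and of Per3 (vertical) from the group mean, on the log2 scale, one numbered point per array, with the 10 arrays of the transgenic model on the left and the 8 of the ASO model on the right. Pearson's r was 0.743 and 0.671, and in the ASO model ACAT2 ASO 2 and control ASO 2 lie at the upper right by themselves.

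Over the deviations of all 18 arrays, the genes most like Dbp among 1824 with an SD of at least 0.2 were Pcsk4, Vwce, Rnf152, Apol7a and Tbcel, with correlations between 0.75 and 0.79. The most opposed were Nedd4l at -0.85, Slc45a3, one of the listed clock-driven genes, at -0.80, and Cdkn1a, an inhibitor of the cell cycle, at -0.79. Of the clock genes themselves, Per3 stood at 0.64 with Dbp, Nr1d2 at 0.52 and Clock at -0.49, and Tef, which encodes a D-box binding relative of DBP, at 0.62. The genes most like Arntl were Slc2a4, Fads2, Aacs, Fgf1 and Cnmd, between 0.76 and 0.86, and the most opposed were Cd79b at -0.84, Tmem51 at -0.81 and Klrk1 at -0.78. Among the clock genes, Per2 stood nearest to Arntl at 0.56, and Dbp stood at -0.12. These correlations are descriptions over arrays that share their groups and, within a model, their processing. The nearest and most opposed genes are extremes picked from 1824, and none was tested. Those of Arntl hold for the probe set used, which correlated at -0.07 with the other Arntl probe set.

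Single samples showed which genes made up this spread. The mean deviation of Per1, Per2, Per3, Nr1d2 and Dbp from the group mean was -0.441 in wild type 2, the lowest of all arrays, and between 0.067 and 0.173 in the other wild type livers. Wild type 2 was the lowest of its group for 6 of the 9 clock genes, namely Arntl, Npas2, Per1, Per2, Per3 and Dbp, by the probe sets used. The second Arntl probe set read 4.55 in wild type 2, the highest of its group, so the low Arntl value there rests on 1 probe set. The Per3 probe sets were divided. The pair given above was highest there, another was the lowest of its group at 4.75, and the last lay inside its group's range at 4.14. The second Npas2 probe set read 3.82, the median of its group, and the second Per2 probe set 5.51, the lowest. The array was also lowest for 9 of 15 further loop genes and 9 of 15 output genes. How often wild type 2 was the lowest of its group over all genes was not counted. Its root mean square deviation over all genes, 0.248, was the largest of all arrays. That value has no sign, so it cannot decide whether these counts are particular to the clock. Its mean deviation over the 13 glucocorticoid, feeding and temperature genes was -0.523. G6pc, the enzyme that releases glucose from the liver, read 6.55 in wild type 2 against 9.08 to 10.28 in the other wild type livers. In the same array the Kupffer marker mean was 10.22 and the mean of 2 neutrophil markers 7.03, both the highest of the 10 arrays of the transgenic model, and the part of these cells in the low clock values was not tested.

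Transgenic 3 was low in the same glucocorticoid, feeding and temperature genes, with a mean deviation of -0.418, and its mean over the 15 output genes was -0.218. The deviation of Per1, Per2, Per3, Nr1d2 and Dbp averaged 0.003, a mean in which a low Per1 was offset by higher Per3, Dbp and Nr1d2. In that array Per1 and Arntl were the lowest of the group, at 7.11 and 4.60, while Per3, Dbp, Nr1d2 and Npas2 were the highest. Nr1d2 led only narrowly, at 9.73 against 9.72 in transgenic 5, and the second Arntl probe set was the highest of the group, at 4.66. The second Per2 probe set was the lowest of the group, at 5.48. Ciart, a repressor of the loop, read 6.10 in transgenic 3 and 6.05 in wild type 2, against 6.96 to 7.48 in the other transgenic and 6.92 to 7.56 in the other wild type livers. Tsc22d3, a glucocorticoid-induced gene, read 8.03 in transgenic 3 and 7.75 in wild type 2, against 9.16 to 10.05 and 9.20 to 9.89 in the others of each group. ACAT2 ASO 2 was also low in the glucocorticoid, feeding and temperature genes, at -0.362, and was the lowest of its group for 9 of 13, while its mean deviation over Per1, Per2, Per3, Nr1d2 and Dbp was 0.20. The share of all genes for which ACAT2 ASO 2 was lowest was not counted. Signs of RNA quality were not alike in transgenic 3, wild type 2 and ACAT2 ASO 2. For Actb, the control probe set at the 3′ end exceeded that at the 5′ end by 1.26 on the log2 scale in transgenic 3 and by 0.83 in wild type 2, the highest and the lowest of the 10 arrays of that model, and transgenic 3 had the lowest hepatocyte marker mean of the 10, 12.67. ACAT2 ASO 2 had the highest such differences of the 8 arrays of its model, 1.18 for Actb and 0.34 for Gapdh, and the part of RNA quality was not tested. Transgenic 1, with -0.202, and ACAT2 ASO 1 and control ASO 4, with -0.26 and -0.202, were the lowest of their groups for the mean of Per1, Per2, Per3, Nr1d2 and Dbp, and the mean deviation of Arntl, Clock and Npas2 in these 3 arrays was 0.027, 0.047 and 0.037. Arntl itself read 4.35 in ACAT2 ASO 1, the lowest of its group, and 4.31 in control ASO 4, below group means of 4.44 and 4.35. In transgenic 1 it read 4.74, above a group mean of 4.70. The second Arntl probe set read 3.96 in ACAT2 ASO 1, above a group mean of 3.92, and 4.32 in transgenic 1, below a group mean of 4.47. In control ASO 4 it read 3.90, below a group mean of 3.92. ACAT2 ASO 1 and control ASO 4 also had the highest Kupffer marker means of their groups, 9.88 and 9.49, whose part was not tested.

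Without transgenic 3 and wild type 2, a choice made after seeing the data, 0 of 9 clock genes were called in either model, and Arntl2 had a change of -0.29 (limma adjusted p = 0.0984). Without wild type 2, ACAT2 ASO 1 and control ASO 4, 1 of 9 was called in the transgenic model, Arntl2 with limma adjusted p = 0.0345, and 0 of 9 in the ASO model. Time of sampling and any other state that differs between single samples cannot be told apart here.

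**Figure D5:**
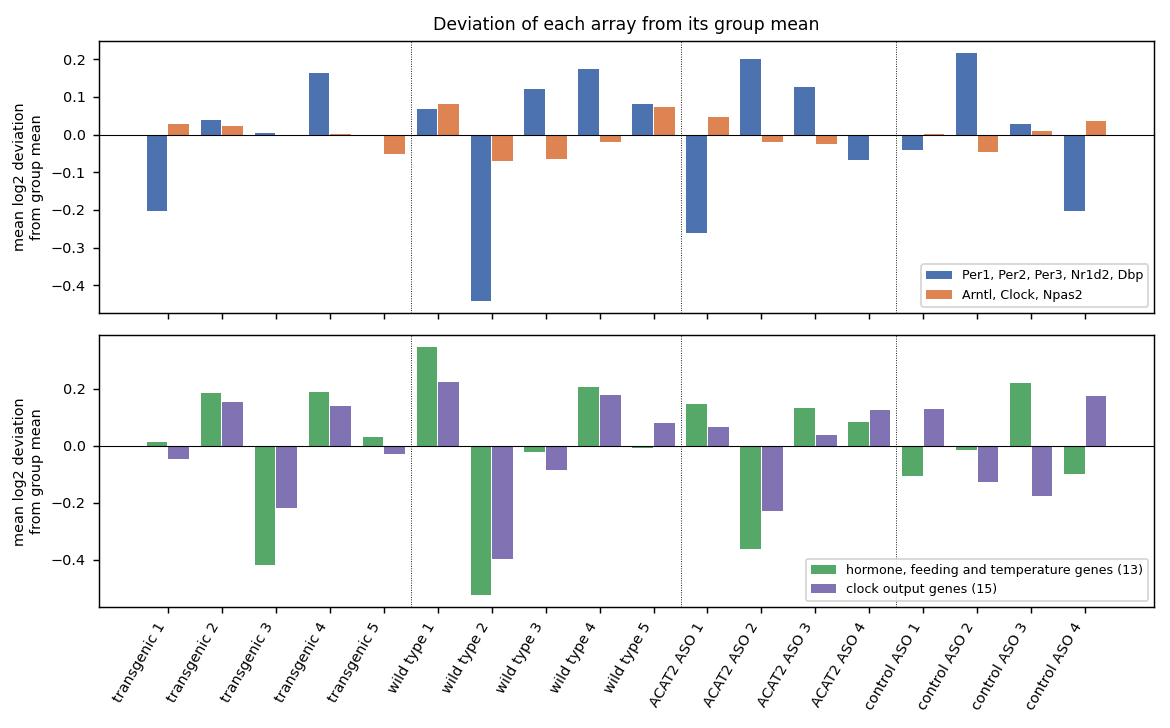
Mean log2 deviation of each array from its group mean (vertical axis). The upper bars show Per1, Per2, Per3, Nr1d2 and Dbp in blue and Arntl, Clock and Npas2 in orange, and the lower bars the 13 hormone, feeding and temperature genes and the 15 clock output genes. Wild type 2 is low in both, at -0.441 and -0.523, while transgenic 3 is low only in the lower plot, at -0.418 against 0.003.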

How the data were processed

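Probe set summaries on the log2 scale were deposited by the authors, and the submitters' processing notes name RMA. The RMA software is not given in the sources used here, and the log2 scale was read from the range of the values. Per the labels' protocols, Trizol was used to isolate RNA, of which 250 ng was labelled by the Affymetrix 3′-IVT procedure. Of 45141 probe sets, 104 controls were left out and 28898 had 1 gene symbol. A gene was its probe set with the highest mean, with no filter on low values. Differences were tested two-sided with limma 3.58.1 (R 4.3.3, lmFit and eBayes), in 1 fit of 4 group means over 18 arrays, with Benjamini-Hochberg adjustment over 17097 genes, and the scripts were tested on simulated data. Correlations used deviations from group means and exact permutation within groups, adjusted over 8 relations. The members, lists and tests were chosen with earlier results of these data known. Genes named beyond the members were, from each list, those with the smallest p, up to 4, and the nearest and most opposed genes by correlation. Genes used to describe single arrays were picked after their values were seen. Knockdown by the ASO was not checked, as its target was not analysed here. The number of arrays limits the precision.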

Additional observations from a re-analysis of the deposited data

Results flagged for a closer look

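The second Npas2 probe set had 1 value far from the others of its group, 3.76 in ACAT2 ASO 3 against 3.50 to 3.52 in the other 3 ACAT2 ASO livers. It was the only one found in 84 tests for such values over the clock probe sets and groups, where chance gives about 1 in 20, and the probe set used for the gene was not affected. Arntl2 differed between the models, with a transgenic change minus ASO change of -0.37 ± 0.08 (SE, limma adjusted p = 0.0418). With its probe sets averaged the difference was -0.11 (limma adjusted p = 0.456), and the call was also lost after quantile normalization (0.0545) and median centring (0.0621) and with the replicate block (0.132). Its mean was 4.14 ± 0.10 in transgenic and 4.42 ± 0.05 in wild type livers (SD, n = 5 each), and 4.69 ± 0.09 in ACAT2 ASO and 4.60 ± 0.09 in control ASO livers (SD, n = 4 each).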

How the results depend on the processing

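The count of clock genes called in the transgenic model was 1 and became 0 with a gene's probe sets averaged, quantile normalization within each model, each array centred on its median, the lowest 40% of genes removed (which left 6 of the 9 clock genes and not Arntl2), the arrays of one model alone, a trended and robust variance, a fold minimum of 1.5, and without transgenic 3 and wild type 2. It was 0 to 1 when single arrays were left out. For the difference between the models it was also 1, and became 0 under the same settings except the trended and robust variance, with 0 to 1 without single arrays, and the arrays of one model alone give no such difference. Both counts stayed at 1 with every probe set tested by itself, with array weights, and without wild type 2, ACAT2 ASO 1 and control ASO 4. The ASO count was 0 under every alternative. Replicate numbers did not pair the samples, since same-numbered deviations correlated between -0.482 and 0.469 and 1 of 9 best matched its own number. With the replicate block the clock counts were 0, and all genes called numbered 2, 18 and 12 in the transgenic, ASO and difference comparisons, against 39, 102 and 183 without it.

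Of all genes, limma called 78, 219 and 350 probe sets with every probe set tested, 13 and 17 genes with one model alone, and 8, 29 and 42 with a fold minimum of 1.5. In the difference, quantile normalization gave 102 and median centring 112. Array weights gave 465 in the ASO model and 369 in the difference. Without transgenic 3 and wild type 2 the counts were 21 in the transgenic model and 105 in the difference, and without wild type 2, ACAT2 ASO 1 and control ASO 4 they were 46 in the ASO model and 58 in the difference. Without single arrays they ran from 20 to 58, 42 to 203 and 69 to 262. Of the listed genes, 1 output gene was called in the difference without ACAT2 ASO 2.

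Of 630 log2 changes of clock genes recomputed, 572 kept their sign and side of the threshold, 35 lost a call, 0 gained one and 23 turned sign, all of them for changes of at most 0.12 in size. Array weights gave -0.026 for the Per2 difference, which was -0.14 without transgenic 3 and wild type 2. Without wild type 2, ACAT2 ASO 1 and control ASO 4, the Per1 change in transgenic livers was -0.025 and the differences of Clock, Per1 and Per2 were 0.028, -0.062 and -0.15. Leaving out single arrays moved the transgenic changes of Clock from -0.039 to 0.067, Npas2 from -0.061 to 0.011, Per1 from -0.025 to 0.26, Per2 from -0.33 to 0.0077 and Nr1d2 from -0.12 to 0.0. The ASO changes ran from -0.0008 to 0.10 for Clock and from -0.055 to 0.056 for Per1, and the differences from -0.10 to 0.020 for Clock, -0.027 to 0.26 for Per1 and -0.13 to 0.22 for Per2.

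Of the correlations, Arntl and Dbp became 0.0766 in the transgenic model without centring on group means and 0.0325 in the ASO model after quantile normalization. Arntl and Per3 became 0.0336 without centring and 0.137 without the 2 farthest arrays in the transgenic model, and -0.0482 without centring and -0.484 with the mean of probe sets in the ASO model. Arntl and Npas2 became 0.592 without the 2 farthest arrays in the transgenic model. The causes were not tested. Searching the whole promoter window in place of the 250 bases before the start added the ROR element of Arntl alone. No detection calls were used, so how far low probe sets such as those of Arntl, Arntl2 and Npas2 stand above background was not measured.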
